A study of Mus musculus with 6 samples.

Results

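The synaptotagmins Syt1, Syt4, Syt7, Syt11, Syt12, Syt13 and Syt17 and the islet cell autoantigen genes Ica1 and Ica1l were examined in control and JAG1-overexpressing mouse astrocytes. The 9 genes were taken by symbol from the 23282 gene rows of each table, and each symbol was found on a single row. The tables spell them SYT1, SYT4, SYT7, SYT11, SYT12, SYT13, SYT17, ICA1 and ICA1L. They were chosen by their roles in vesicle trafficking and on their read counts in control against JAG1 libraries, which were already known, so that the values of all 9 are given as a description and with no p-value. The astrocytes of both groups were Ink4a-/- per the labels, written Ink4a/Arf-/- in the study. The 3 control libraries came from cells given the empty vector pcDNA3.1-puro, which the labels call genotype WT, and the 3 JAG1-overexpressing libraries from cells given pcDNA3.1-JAG1-puro. The sources used here name neither separate cultures or transfections behind the libraries nor a pool or clone of cells, so that p-values measure the spread between these libraries, which may be technical. Each library held between 14341634 and 20489062 reads counted on genes. In these bulk libraries, fewer cells with a transcript and less of it per cell cannot be told apart.

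Synaptotagmins are membrane proteins with a pair of C2 domains that bind phospholipids and, in many members, calcium, and they couple a rise of calcium to the fusion of vesicles through the SNARE proteins. Syt1 is the fast calcium sensor of synaptic vesicles, whereas Syt7 has a high affinity for calcium and acts in slow transmitter release, in the fusion of lysosomes with the plasma membrane and in membrane repair. Syt4, Syt11, Syt12 and Syt13 are atypical members with weak or no calcium binding. Ica1 encodes a BAR domain protein, first known as an autoantigen of pancreatic islets, that binds PICK1 and the GTPase RAB2 and takes part in the budding and maturation of dense-core vesicles at the Golgi, and Ica1l is its paralog. In astrocytes, regulated exocytosis is known from the release of transmitters, peptides and lysosomal contents.

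RefSeq promoter sequences of GRCm38.p6 were held for 4 of the 9 genes (Ica1, Ica1l, Syt11 and Syt1). The 250 bases before an annotated transcript start are shown for Ica1, which had reads in a single group, and for its paralog Ica1l, which was near 0 in both. The start is that of 1 RefSeq transcript. The Ica1 window lies partly, and that of Ica1l wholly, within the extent of its gene over all transcripts, which for Ica1l is chr1:59985796-60043481. Capitals mark CG dinucleotides.
Ica1, chr6:8778485-8778734, minus strand: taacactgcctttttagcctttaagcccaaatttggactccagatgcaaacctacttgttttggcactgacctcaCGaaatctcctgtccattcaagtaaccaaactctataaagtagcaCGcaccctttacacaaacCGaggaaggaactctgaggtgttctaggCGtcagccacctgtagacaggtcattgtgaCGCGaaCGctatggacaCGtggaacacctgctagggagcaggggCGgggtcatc
Ica1l, chr1:60043123-60043372, minus strand: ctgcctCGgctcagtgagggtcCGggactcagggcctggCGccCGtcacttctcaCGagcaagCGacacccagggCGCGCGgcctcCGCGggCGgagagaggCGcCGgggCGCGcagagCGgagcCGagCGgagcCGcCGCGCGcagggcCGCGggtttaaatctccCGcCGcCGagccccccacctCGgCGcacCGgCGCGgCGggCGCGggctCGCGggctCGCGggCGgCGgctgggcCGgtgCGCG
The Ica1 window held 9 CG dinucleotides and 49.6% G and C, and the Ica1l window 45 and 80.4%. The median of 32851 annotated mouse windows was 6 CG dinucleotides, and 99.6% of them held fewer than that of Ica1l. A downstream Ica1 start in RefSeq, with the window chr6:8758459-8758708, held 0. The SMAD3 core GTCTG and the core TGGGAA, which RBPJ, the DNA-binding factor of Notch signaling, is known to bind, were searched on both strands. Neither was present in the 6 windows of these 4 genes, and they were present in 42.2% and 21.6% of all windows. The SMAD3 site that the study reports in the TWIST1 promoter lies farther upstream than such windows reach. Binding of either factor to the 9 genes was not tested. The reads of these 3' libraries do not show which start was used.

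Jag1, the gene carried by the vector, was measured first. It had 8.99, 10.8 and 11.2 CPM (reads of a gene per 1e6 reads of the normalised library) in control libraries and 15.2, 13.6 and 13.8 in JAG1-overexpressing libraries. The groups did not overlap, and Jag1 rose by 0.46 on the log2 scale (SE 0.11, adjusted p = 0.00446). The ratio of mean CPM was 1.37. Whether transcripts of the vector gave reads on this row was not tested, and such reads were not separated from those of the cell's own gene.

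Of the 9 genes, 5 had enough reads to be tested (Syt7, Syt11, Syt12, Syt13 and Ica1). Ica1 and Syt12 passed this filter through the JAG1-overexpressing libraries alone and Syt7 through the control libraries alone. At an adjusted p under 0.05, 2 of the 5 were called higher (Ica1 and Syt12) and 3 lower (Syt7, Syt11 and Syt13) in JAG1-overexpressing astrocytes, where 27.4% of all 11712 tested genes were called higher, 27.7% lower and 55.1% either. The groups did not overlap for any of the 5, nor for 62.0% of all tested genes (31.1% higher and 30.9% lower in JAG1-overexpressing libraries). Since the genes were chosen with this contrast known, these counts are a description and nothing is read from them.

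Syt7, on the plus strand at chr19:10388802-10453181, had 1089, 936 and 1001 reads in control replicates 1, 2 and 3 and 2, 0 and 0 reads in JAG1-overexpressing replicates 1, 2 and 3. Every control library was far above every JAG1-overexpressing library, and the only reads of the latter were in replicate 1. The level went from 52.1 ± 1.77 CPM (SD, n = 3) in control to 0.0332 ± 0.0576 CPM (SD, n = 3). The reads of each JAG1-overexpressing library lay under the limit of 3 reads that a count of 0 allows. On pooled reads the ratio was 1330, with an exact 95% binomial interval of 368 to 11000 that covers counting error only. Without JAG1-overexpressing replicate 1 no read was left in that group, and Syt7 was then at least 253-fold lower against a limit of 3 reads per library. In control astrocytes, 70.0% of tested genes had a lower level than Syt7. Of the 10507 rows with at most 3 reads in each JAG1-overexpressing library, Syt7 had the highest level in control libraries and was the sole row at 50 CPM or more, the number at 10 CPM or more being 10. The gene models Gm26859 and AC124169.1, which overlap Syt7 in the annotation, are not analysed here.

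Syt11 and Syt13 were lower in JAG1-overexpressing astrocytes but remained expressed. Syt11, which is known to restrain endocytosis and vesicle exchange and lies at chr3:88744699-88775159, had 1192, 981 and 1009 reads in control libraries and 428, 321 and 336 in JAG1-overexpressing libraries. This is a level of 54.8 ± 3.54 CPM (SD, n = 3) against 21.3 ± 0.841 CPM (SD, n = 3), a ratio of 2.57 and a log2 fold change of −1.36 (standard error 0.08). The lowest control library lay above the highest JAG1-overexpressing library. Syt13, a member with a short N terminus and no calcium binding, lies at chr2:92915101-92956051 and had 466, 452 and 495 reads in control and 173, 172 and 137 in JAG1-overexpressing libraries. Its level went from 24.4 ± 1.45 to 9.59 ± 1.95 CPM (SD, n = 3 in each group), again with a log2 fold change of −1.36 (standard error 0.13). JAG1-overexpressing replicate 2 was the highest of its group for Syt13, with 11.8 CPM against 8.62 and 8.32, and still lay under the lowest control value of 23.0.

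Syt12, at chr19:4445908-4477143, is a synaptic vesicle protein whose C2 domains lack calcium binding. It had 0 reads in every control library and 22, 16 and 16 reads in JAG1-overexpressing libraries. The mean was 1.06 ± 0.0733 CPM (SD, n = 3), a low level that 8.5% of tested genes lay under, and at least 6.56-fold higher than the limit of 3 reads per control library. The end of Syt12 shares 3066 bases with A930001C03Rik on the opposite strand, which itself had 5, 11 and 5 reads in control and 51, 47 and 43 in JAG1-overexpressing libraries. Whether the counting used strand is not given in the sources used here, so that reads of this pair cannot be told apart.

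Syt4, on chromosome 18, which is known from dense-core and BDNF-containing vesicles, had 0, 1 and 2 reads in control and 9, 12 and 9 in JAG1-overexpressing libraries, too few for the test. The control reads lay under the limit of 3 per library. The groups did not overlap, and the pooled reads had a ratio of 11.4 (exact 95% binomial interval 3.53 to 58.2, counting error only). Syt1 (chr10:108497650-109010980) and Syt17 (chr7:118380713-118448583), a member without a transmembrane segment, were listed at 0 in all 6 libraries. A count of 0 allows up to 3 reads, between 0.148 and 0.206 CPM depending on the library.

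Ica1, on the minus strand at chr6:8630527-8778540, had 0 reads in every control library and 739, 450 and 640 reads in JAG1-overexpressing replicates 1, 2 and 3. Its levels in the latter were 36.8, 31.0 and 38.9 CPM, a mean of 35.6 ± 4.11 (SD, n = 3), with replicate 2 the lowest. Relative to the limit of 3 reads per control library it was at least 221-fold higher. Of the 7437 rows with 0 reads in every control library, 38 had more than 3 reads in each JAG1-overexpressing library and 4 had a mean of 10 CPM or more, and Ica1 had the highest level. It was then above 61.0% of tested genes. The paralog Ica1l had 0, 3 and 0 reads in control and 2, 1 and 0 in JAG1-overexpressing libraries, at or under the limit throughout, and its annotated end overlaps that of Fam117b on the opposite strand by 2857 bases. Fam117b had 471, 438 and 553 reads in control and 581, 489 and 465 in JAG1-overexpressing libraries.

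**Figure D1:**
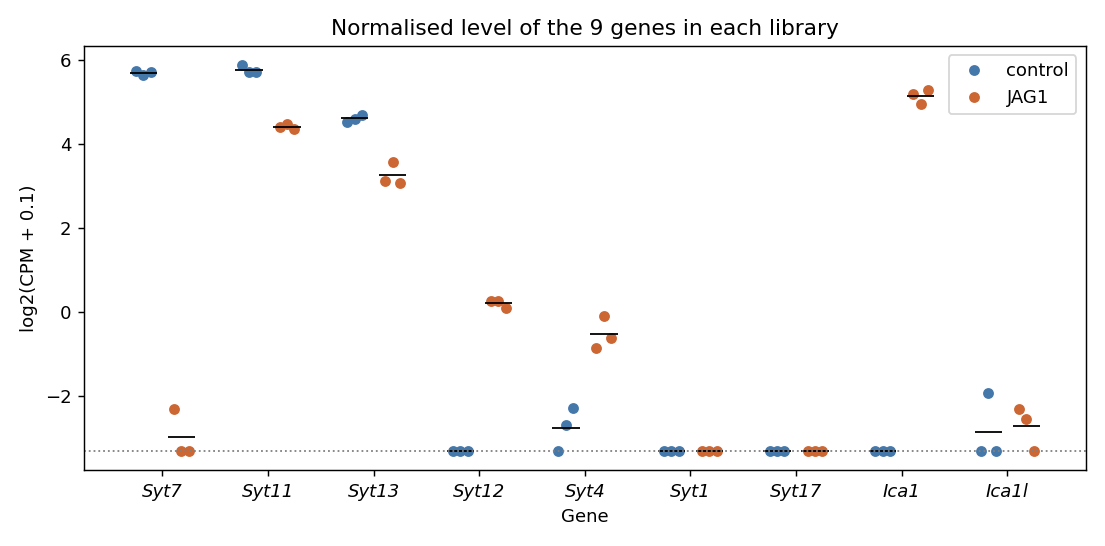
Level of each of the 9 genes in the 6 libraries as log2(CPM + 0.1); points are libraries, horizontal bars the group means on this scale, and the dotted line a count of 0. Syt7 lies on the dotted line in 2 of the 3 JAG1-overexpressing libraries, Ica1 lies on it in all 3 control libraries, and Syt11 and Syt13 are lower in each JAG1-overexpressing library.

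The tables held 17 numbered synaptotagmins, of which 7 had 0 reads in all libraries and 11 had at most 3 in each. A QuantSeq read stands for the 3' end of a transcript, so that CPM values of different genes can be set side by side without a correction for length. Summed over the family, the level was 137, 128 and 132 CPM in control libraries and 33.6, 37.6 and 31.6 CPM in JAG1-overexpressing libraries, a ratio of group means of 3.86. The make-up of this sum also differed between the groups. Syt7 held between 39.2% and 39.7% of it in control libraries and at most 0.296% in JAG1-overexpressing libraries, and Syt11 held between 40.0% and 43.0% and between 58.8% and 64.5%, respectively. Syt13 held between 16.8% and 19.6% in control and between 25.6% and 31.5% in JAG1-overexpressing libraries. The order of the levels in control astrocytes was Syt11, Syt7 and Syt13, the ranges of the first pair overlapping (52.7 to 58.9 CPM for Syt11 and 50.3 to 53.8 CPM for Syt7). In JAG1-overexpressing astrocytes it was Syt11, Syt13, Syt8, Syt12 and Syt4, with means of 1.64 CPM for Syt8, 1.06 for Syt12 and 0.607 for Syt4, each further from its neighbour than their SDs. Ica1 was the highest of the 9 genes there, at 35.6 CPM against 21.3 for Syt11.

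**Figure D2:**
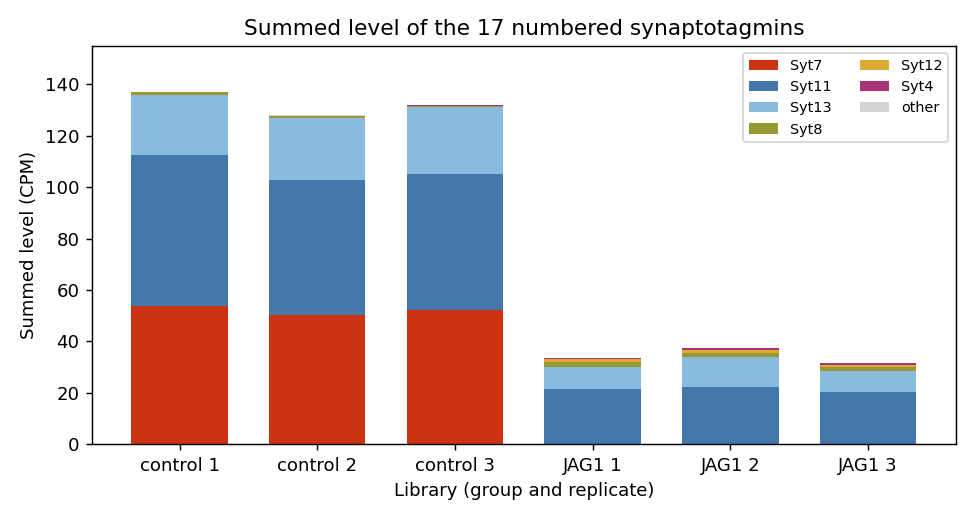
Summed CPM of the 17 numbered synaptotagmins in each library, stacked by gene. Control bars reach 128 to 137 CPM with Syt7, Syt11 and Syt13 as the main parts, and JAG1-overexpressing bars reach 31.6 to 37.6 CPM with no visible Syt7 part.

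Syt7 and Syt12 lie on chromosome 19. There, 74.3% of the 420 other tested genes were called higher and 7.14% lower, the median log2 fold change being 0.61, so that Syt7 differed in the opposite direction from most of its chromosome. The nearest listed genes before Syt7 are Dagla, Myrf and Tmem258, and those after it are Lrrc10b, Ppp1r32 and Sdhaf2. Dagla, which makes the endocannabinoid 2-AG, rose from 2.14 ± 0.662 to 3.87 ± 0.565 CPM (SD, n = 3 in each group), a log2 fold change of 0.86 (adjusted p = 0.0104). Tmem258, a subunit of the oligosaccharyltransferase, rose by 0.69 (adjusted p = 2.79e-06) and Sdhaf2, an assembly factor of succinate dehydrogenase, by 0.41 (adjusted p = 0.00155). Lrrc10b, Ppp1r32 and Myrf had at most 3 reads in a library. Of the 40 tested genes nearest to Syt7, 20 on each side, 33 were called higher and 2 lower, and the log2 fold changes ranged from −0.68 for Tmem132a to 8.24 for Ms4a4d.

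Ica1 lies on chromosome 6, where the median log2 fold change of the 563 other tested genes was 0.02, with 27.9% called higher and 24.3% lower. On its left are Glcci1, A430035B10Rik and Umad1, and on its right Nxph1, AA545190 and Ndufa4. Glcci1 rose from 3.02 ± 0.292 to 6.94 ± 0.169 CPM (SD, n = 3 in each group), a log2 fold change of 1.20 (adjusted p = 2.87e-05). Umad1, with a log2 fold change of 0.30 (adjusted p = 0.174), and Ndufa4, with 0.09 (adjusted p = 0.620), did not pass the test. Nxph1 and AA545190 were listed at 0 in all libraries. Of the 39 tested genes in the same wider window, 18 were called higher and 7 lower, and their median was 0.27 on the log2 scale, with Tspan12 the lowest at −1.76 and Col1a2 the highest at 3.92.

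**Figure D3:**
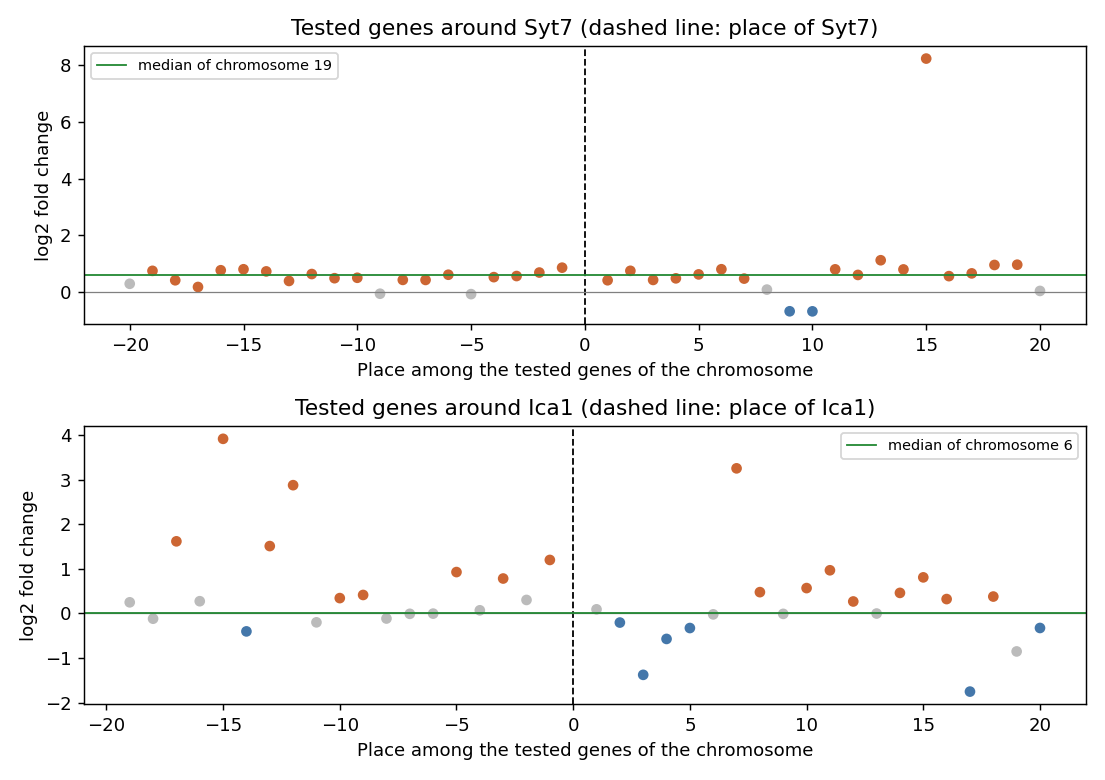
Fitted log2 fold change (JAG1-overexpressing over control) of tested genes in their order along the chromosome around Syt7 and Ica1, which themselves are left out and marked by dashed lines; orange points are called higher, blue points lower and grey points neither. Around Syt7 most points lie near the chromosome median of 0.61, and around Ica1 they lie on both sides of the median of 0.02.

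Among the tested genes whose log2 CPM over the 6 libraries was most like that of Syt7 were Padi1, Mex3a, Sulf1 and Ptgs1, each with Pearson's r of at least 0.9996, and 448 genes had r above 0.99. Padi1 had 66, 61 and 60 reads in control and 1, 0 and 0 in JAG1-overexpressing libraries, and Sulf1 had 78, 67 and 64 and 1, 0 and 0. The most like Ica1 were Pou3f2, Arxes2, Slc30a4, Magee1 and Tram1l1, with r of at least 0.9997, and 394 genes had r above 0.99. Pou3f2, a neural POU factor, had 0 reads in control libraries and 205, 135 and 187 in JAG1-overexpressing libraries. These points share 2 groups and their libraries, so that r mainly restates the step between the groups.

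For the other genes of vesicle trafficking, 10 lists were written, with 235 genes in all, of which 232 were found in the tables and 158 were tested. Without the 9 genes above, 48 rose (30.4%) and 42 fell (26.6%) in JAG1-overexpressing astrocytes, at a median of 0.03 on the log2 scale. Both shares lay near the 27.4% and 27.7% of all tested genes, and the lists are therefore described by the genes within them. Of the genes named below, Myof, Vti1a, Exoc6 and Vps51, which rose, and Doc2g and Acta2, which were lower, lie on chromosome 19, where 74.3% of the genes were called higher, and the part of this in their differences was not tested.

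Among the relatives of the synaptotagmins, 28 genes were found and 8 tested, with 3 higher and 3 lower. Myof, the ferlin myoferlin of membrane repair, was the best expressed and rose from 139 ± 5.33 to 445 ± 19.8 CPM (SD, n = 3 in each group), a log2 fold change of 1.68 (SE 0.05, adjusted p = 1.02e-09). Its reads were 2741, 2702 and 2608 in control and 9211, 6599 and 6956 in JAG1-overexpressing libraries. Esyt2, a tether between the endoplasmic reticulum and the plasma membrane, rose by 0.69 (adjusted p = 5.15e-06), and Esyt3, of the same family, had a log2 fold change of −2.95 (adjusted p = 8.71e-04) at a low level of 1.10 ± 0.186 CPM (SD, n = 3) in control. Syt8 was higher by 0.83 (adjusted p = 0.0346), whereas Doc2g had −1.08 (adjusted p = 0.0274) and Dysf, dysferlin, −0.40 (adjusted p = 0.0261). The calls of these 3 were lost with 1 library left out, with adjusted p values up to 0.143 for Syt8 (without JAG1-overexpressing replicate 1), 0.0957 for Doc2g (without control replicate 2) and 0.0881 for Dysf (without JAG1-overexpressing replicate 3). Doc2a, at 902, 861 and 886 reads in control and 906, 673 and 791 in JAG1-overexpressing libraries, had a log2 fold change of 0.02 (adjusted p = 0.759).

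Of 32 tested SNAREs, which join the membranes of vesicle and target, 11 rose and 7 fell, all within a log2 fold change of −0.68 to 0.92. The largest rises were those of Vti1a with 0.92, Stx11 with 0.90 and Vamp2 with 0.77, and the largest falls those of Gosr2 with −0.68, Stx2 with −0.60 and Vamp5 with −0.58, with adjusted p values of at most 0.00109. Vti1b, the best expressed, had −0.12 (adjusted p = 0.0928). The neuronal SNARE Snap25 was listed at 0 in all libraries, as was Vamp7, which most cells are known to express.

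The SNARE regulators held the widest differences, with 9 higher and 2 lower of 22 tested and a median of 0.21. Stxbp6, known as amisyn, which binds syntaxin, had 3, 1 and 0 reads in control and 322, 258 and 270 in JAG1-overexpressing libraries, a ratio of 241 on pooled reads (exact 95% binomial interval 93.9 to 888, counting error only; adjusted p = 2.62e-09). The control reads lay at or under the limit of 3 per library, and the fitted log2 fold change of 7.78 lay between 7.24 and 8.96 with 1 library left out, the highest without control replicate 1. Unc13d, a priming factor of granule release, rose from 0.348 ± 0.122 to 3.72 ± 0.430 CPM (SD, n = 3 in each group), a log2 fold change of 3.40 (adjusted p = 1.98e-06), and Cplx2, a complexin that clamps SNARE complexes, by 1.32 (adjusted p = 8.12e-06). Unc13c, another priming factor, fell from 13.6 ± 0.442 to 1.77 ± 0.546 CPM (SD, n = 3 in each group), a log2 fold change of −2.94 (adjusted p = 1.12e-07). Vps33b had −0.34 (adjusted p = 0.0471), a call lost with the replicate block (adjusted p = 0.0674) and with each of 5 libraries left out in turn, at adjusted p values between 0.0509 and 0.170, the highest without control replicate 2. Tmed10, the best expressed gene of the list as written, had 0.01 (adjusted p = 0.935), and its place among SNARE regulators was not tested.

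The exocyst tethers vesicles at the plasma membrane, and its list also holds Exoc3-like genes such as Exoc3l4. On this list, 4 of 10 tested genes rose and 3 fell. Exoc6 rose from 4.04 ± 0.937 to 19 ± 1.59 CPM (SD, n = 3 in each group), a log2 fold change of 2.23 (adjusted p = 3.60e-07), and Exoc3l4, the best expressed in JAG1-overexpressing libraries, by 0.77 (adjusted p = 1.84e-06). Exoc4 was higher by 0.32 (adjusted p = 0.0460), and Exoc2, Exoc1 and Exoc3 had log2 fold changes of −0.42, −0.29 and −0.21 (adjusted p = 0.0189, 0.0108 and 0.0358). A single gene of the list was lower without control replicate 3, without JAG1-overexpressing replicate 2 or without replicate 3 of that group, and with 1 library left out the adjusted p reached 0.0987 for Exoc3 (without JAG1-overexpressing replicate 2), 0.0718 for Exoc2 (without control replicate 3) and 0.157 for Exoc4 (without control replicate 1).

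Of the secretory RABs and their effectors, 4 rose and 8 fell of 18 tested. Rims2, a RAB3 effector of the active zone, rose by 1.77 (adjusted p = 6.08e-05), Rab27b, a GTPase of secretory granules, by 1.23 (adjusted p = 6.04e-04) and Rab3gap2 by 0.61 (adjusted p = 2.66e-05). Rab3d had a log2 fold change of −1.25 (adjusted p = 0.00636), Myo5a, a motor that carries vesicles on actin, −0.44 (adjusted p = 9.45e-05) and Rab13 −0.43 (adjusted p = 0.00504). Rab10, the best expressed, had −0.13 (adjusted p = 0.0449), which was up to 0.125 with 1 library left out, the highest without JAG1-overexpressing replicate 1. Without control replicate 2 or JAG1-overexpressing replicate 1, 5 genes of the list were lower.

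The list of Ica1 partners held Pick1 and the RAB2 forms, and beside them mostly genes of Golgi trafficking whose binding to the Ica1 protein is not claimed here. All 22 genes on this list were tested, and 4 rose and 7 fell within a narrow range of −0.69 to 0.74. Pick1, which forms a dimer with the Ica1 protein, fell from 13.5 ± 1.52 to 8.99 ± 1.5 CPM (SD, n = 3 in each group), a log2 fold change of −0.60 (adjusted p = 0.00299). Rab2a, the RAB2 form with the higher level, had 234 ± 2.10 and 246 ± 7.0 CPM (SD, n = 3 in each group; log2 fold change 0.07, adjusted p = 0.229), and Rab2b fell by 0.59 on the log2 scale (log2 fold change −0.59, adjusted p = 0.00364). Hid1, a dense-core vesicle factor of the Golgi, had −0.69 (adjusted p = 0.00389) and Tbc1d4 −0.62 (adjusted p = 5.08e-05). Vps54 and Vps51, which tether vesicles at the Golgi, rose by 0.74 (adjusted p = 1.47e-04) and 0.64 (adjusted p = 6.47e-04), and Arfip2, an arfaptin with a related BAR domain, by 0.33 (adjusted p = 0.00442). Arf1, the best expressed, had −0.06 (adjusted p = 0.427).

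Dense-core vesicle cargo was measured on 8 of 20 genes, of which 3 rose and 4 fell. Bdnf, the neurotrophin, fell from 176 ± 24.4 to 49.5 ± 1.86 CPM (SD, n = 3 in each group), a log2 fold change of −1.84 (adjusted p = 2.84e-08), Pam, which amidates peptides, had −1.13 (adjusted p = 2.03e-08) and Scg5, a chaperone of prohormone convertase, −2.62 (adjusted p = 4.95e-05). Ptprn, another islet autoantigen and a membrane protein of dense-core vesicles, rose from 4.21 ± 1.08 to 13.1 ± 1.58 CPM (SD, n = 3 in each group), a log2 fold change of 1.63 (adjusted p = 1.33e-05). Cpe, carboxypeptidase E, rose by 0.39 (adjusted p = 3.22e-05) and was the best expressed over all libraries, although Pam lay above it in control with 235 against 190 CPM. Nucb2 was higher by 0.27 (adjusted p = 0.0232), which reached 0.0749 without JAG1-overexpressing replicate 2. The granin Chga, the convertases Pcsk1 and Pcsk2 and the peptide genes Npy, Penk and Sst were listed at 0 in all libraries. Of the 12 other islet autoantigens 2 were tested, Ptprn and Hspd1 (log2 fold change 0.04, adjusted p = 0.621), and the insulin genes Ins1 and Ins2, Iapp, Gad1 and Slc30a8 were among the 7 listed at 0.

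Of 11 tested synaptic vesicle proteins, 3 rose and 4 fell. Syngr1, synaptogyrin, fell from 88.5 ± 7.94 to 10.5 ± 1.09 CPM (SD, n = 3 in each group), a log2 fold change of −3.08 (adjusted p = 9.21e-10), Scamp5 had −3.52 (adjusted p = 4.41e-08) and Sv2a −1.76 (adjusted p = 0.0100). The rises, of Scamp1, Scamp4 and Syngr2, were 0.36, 0.34 and 0.23, and that of Scamp4 was lost without control replicate 2 (adjusted p = 0.0799) and without JAG1-overexpressing replicates 1 and 3 (0.0585 and 0.0705). Sypl, the best expressed in control libraries, had 0.10 (adjusted p = 0.122).

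Lysosomal genes, whose organelle fuses with the plasma membrane through Syt7, were all tested, with 7 higher and 4 lower of 26 and a median of 0.03. Gaa, the lysosomal glucosidase, rose by 0.90 (adjusted p = 5.32e-06), Tfeb, a transcription factor of lysosomal genes, by 0.87 (adjusted p = 8.19e-05) and the proton pump subunit Atp6v0d1 by 0.59 (adjusted p = 0.00334). Psap, prosaposin, had −0.49 (adjusted p = 2.45e-05), the protease Ctsd −0.42 (adjusted p = 3.20e-05) and Ctsl −0.25 (adjusted p = 0.0208), the last being lost with each of 4 libraries left out in turn, the highest adjusted p being 0.0762 without JAG1-overexpressing replicate 1. Lamp1 and Cd63, membrane proteins of the lysosome, had 0.10 (adjusted p = 0.0957) and 0.01 (adjusted p = 0.921).

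**Figure D4:**
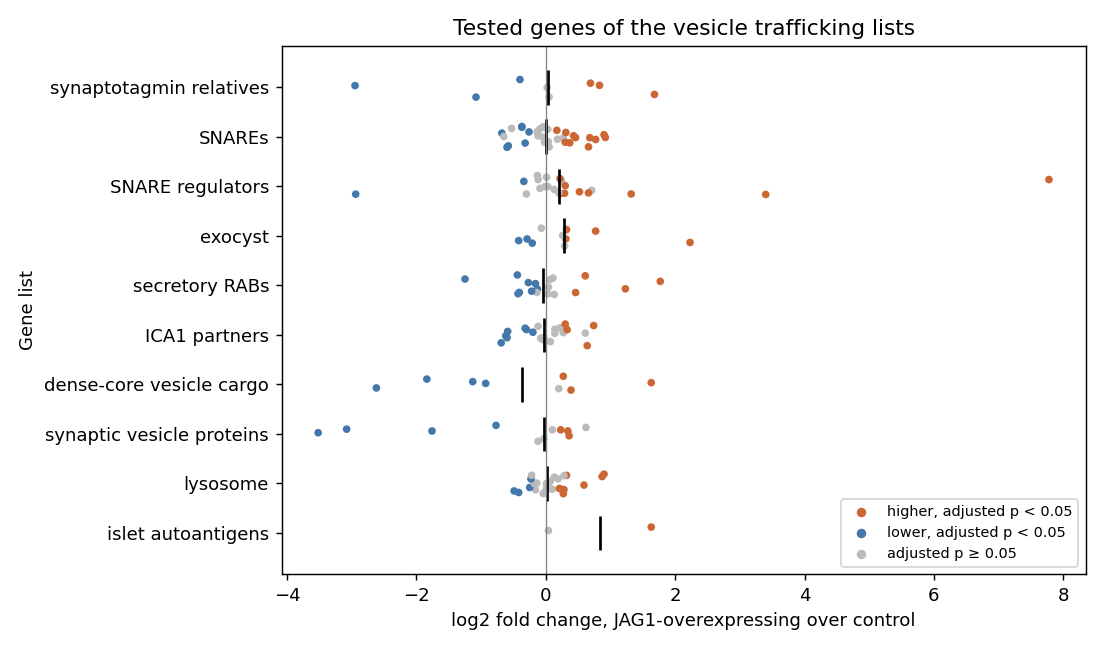
Fitted log2 fold change (JAG1-overexpressing over control) of each tested gene of the 10 vesicle trafficking lists; the black bars are list medians, orange points are called higher, blue points lower and grey points neither. The points lie on both sides of 0 in each list with 3 or more tested genes, and the farthest is Stxbp6 with a fitted 7.78.

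The cell type was compared with marker lists. Of 12 astrocyte markers, Gfap and Aqp4 were listed at 0 in all libraries and Slc1a2, Slc1a3 and Atp1b2 had at most 3 reads in a library, while Gja1 was the most abundant over all libraries, with 151 CPM in control and 96.7 CPM in JAG1-overexpressing libraries, and Sox9 in control libraries, with 181 CPM. The summed level of the astrocyte list was 339, 359 and 400 CPM in control and 137, 126 and 140 CPM in JAG1-overexpressing libraries, and 6 of its 7 tested genes were lower, among them Sox9 with a log2 fold change of −3.33 (adjusted p = 5.31e-11). The calls of S100b and Fgfr3, the sole gene that was higher, were lost with 1 library left out, at adjusted p values up to 0.0693 and 0.130, both without JAG1-overexpressing replicate 3. Of 13 neuronal markers 3 were tested, and the sum was 101, 108 and 110 CPM in control and 60.5, 59.1 and 62.1 CPM in JAG1-overexpressing libraries. It consisted mostly of Tubb3, which fell from 78.2 ± 4.67 to 8.40 ± 0.550 CPM (SD, n = 3 in each group), and Map2, which rose from 25.1 ± 1.07 to 51.3 ± 1.13 CPM. The defining neuronal genes Snap25, Dcx and Nefm were listed at 0.

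Fibroblast and mural cell markers summed to 818, 828 and 854 CPM in control and 352, 361 and 312 CPM in JAG1-overexpressing libraries, with 5 of 6 tested genes lower and Col1a2 higher; Col1a1 was the most abundant over all libraries, although Acta2 lay above it in control with 310 against 236 CPM, and Lum, Thy1 and Rgs5 were listed at 0. Islet and neuroendocrine markers summed to 5.04, 4.72 and 2.98 CPM and to 13.5, 14.4 and 11.4 CPM, nearly all of it Ptprn, with 9 of 12 genes listed at 0. Oligodendrocyte lineage markers summed to at most 6.82 CPM in a library (3 of 10 tested, 1 lower, Pdgfra the most abundant, and Olig1 and Sox10 among 5 listed at 0), and microglial markers to at most 6.12 CPM (3 of 8 tested, 1 higher and 1 lower, Cd68 the most abundant). The call of the higher one, Cx3cr1 (adjusted p = 0.0449), was lost in 9 of 14 alternatives, with an adjusted p of 0.0507 with the replicate block and of up to 0.174 with 1 library left out (control replicate 1). Endothelial markers summed to between 1.04 and 1.93 CPM in control and between 4.44 and 4.92 CPM in JAG1-overexpressing libraries, mostly Flt1, with Tek and Emcn listed at 0. The part of these cell type markers in the differences of Syt7, Syt11, Syt13 and Ica1 was not tested.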

How the data were processed

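RNA of Ink4a-/- (Ink4a/Arf-/-) mouse astrocytes was sequenced from QuantSeq 3' mRNA libraries, 3 control and 3 JAG1-overexpressing. The authors deposited raw read counts per gene symbol and a normalized read count on a log2 scale, whose normalization is not given in the sources used here. The submitters' processing notes name Bowtie2, bedtools, edgeR and the build GRCm38 (mm10). The deposited counts were used, and the log2 values deposited by the authors only as an alternative. Symbols were matched to RefSeq GRCm38.p6 (22059 by symbol, 1090 by synonym, 133 by neither), which gave coordinates. Overlapping genes came from GENCODE M21.

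In R 4.3.3, edgeR 4.0.16 was run on the counts of all genes: filterByExpr (minimum count 10) left 11712 genes, with TMM normalization, the quasi-likelihood test without further terms and Benjamini-Hochberg adjustment over all tested genes (threshold 0.05). Adjusted p values in the text are from this test. The test was checked on simulated data. Standard errors came from the F statistic, and log2 CPM used a prior count of 2. A limit of 3 counts per library was used for bounds.

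The 9 genes and the lists were chosen with earlier results of these data known. Genes named were the 9, Jag1, up to 3 called genes with the largest rise and fall of each list, its best expressed gene over all libraries, Pick1, Rab2a, Rab2b, Lamp1, the 3 listed genes on each side of Syt7 and Ica1, the 5 most correlated with each, and markers that are most abundant or at 0. Tmem132a, Doc2a, A930001C03Rik, Fam117b, Sox9, S100b, Fgfr3, Acta2, Map2, Col1a2, Cx3cr1, Ms4a4d, Tspan12, Slc1a2, Slc1a3, Atp1b2 and the list genes at 0 were named after their values were seen. Some genes that this rule names are not reported here. The window of 20 tested genes on each side was also chosen then. Alternatives, with limma 3.58.1 and DESeq2 1.42.0, are given in the closing section.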

Additional observations from a re-analysis of the deposited data

How the results depend on the processing

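The results were recomputed under 14 alternatives: the Wald test of DESeq2 on its own size factors, library size alone, upper-quartile factors, no filter, a mean count of at least 10, limma-voom, the deposited log2 values with limma-trend, a replicate block, and each library left out in turn. Syt12 was not fitted at a mean count of at least 10. With 1 library left out, the log2 fold change lay between −1.40 and −1.31 for Syt11, between −1.52 and −1.27 for Syt13 and between 0.37 and 0.52 for Jag1, which stayed past the threshold. With 1 library left out, the numbers of called genes lay between 2724 and 3256 (higher) and between 2792 and 3344 (lower), and those of the vesicle trafficking lists between 40 and 47 and between 33 and 41. In the other alternatives these numbers lay between 2930 and 3388, 2997 and 3498, 41 and 51, and 36 and 44. Of 87 called genes among those taken for naming, the 9 genes left out, 72 were fitted and kept their call in every alternative, 14 lost it in at least 1, Sv2a was not fitted at a mean count of at least 10, and 0 changed direction. Over all alternatives, counts of lower genes went from 3 to as few as 1 for the synaptotagmin relatives and the exocyst, from 2 to 1 for the SNARE regulators and from 8 to 5 for the secretory RABs, and without a filter from 0 to 1 for the islet autoantigens. Counts of higher genes went from 9 to as few as 6 for the SNARE regulators and from 11 to as few as 8 for the SNAREs. Without a filter, 6 rather than 3 synaptic vesicle genes were higher. The fitted log2 fold change of Ica1 was 12.34 with edgeR and 9.36 with limma-trend on the deposited log2 values. For Syt12 these values were 7.27 and 4.33. Both genes had 0 reads in every control library, so that a fitted value depends on how a method treats a count of 0 and is not a measured size. Other parts of this difference were not tested.

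Replicate numbers are shared between the groups. The deviations of same-numbered libraries from their group means correlated with r = 0.148, 0.0614 and 0.119 across genes. The other pairs lay between −0.144 and 0.0109, so that each library correlated best with its own number. By the rule used (every pair above 0.1) they were not treated as pairs in the main test. Whether same-numbered libraries share more than a number was not tested. With the replicate block, 3380 genes were higher and 3331 lower, and 51 and 43 in the lists, and Jag1 had 0.46 (adjusted p = 0.00535). At this depth, a count of 0 allows up to 3 reads in a library, and Syt1, Syt17 and Syt4 had too few reads for a test.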
